A study of Rattus norvegicus with 16 samples.

Results

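Outside the major histocompatibility complex (MHC), 8 genes stood out among the named genes that differed most between the retinas of Sprague Dawley (SD) and Fischer (F344) rats: Mospd1, Pter, Slc26a7, Tex26, Pth2r, Tmco3, Pax4 and Gng11. They were chosen by their SD minus F344 difference in room air, so that every room air strain value below is a description and carries no test. Together they have 9 probe sets of the 27342 on the array, and 8 of its 14324 named genes, because Mospd1 is measured by 2 probe sets. RNA from whole retinas of newborn rats was hybridised to 16 Affymetrix gene arrays in 8 groups of 2. The groups were SD and F344 rats under cyclic hyperoxia and SD and F344 rats in room air, each at post-natal day 5 and at day 6. Under cyclic hyperoxia, dams and litters spent alternating periods of 24 hours in 80% and 21% oxygen, starting within hours of birth, while age-matched litters stayed in room air. Each array held pooled RNA of several rats. The series' design text names 3 rats and 2 litters for the pools without settling the make-up of each pool, and sex is not given in the labels used here.

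Cyclic hyperoxia in newborn rats is a model of oxygen-induced retinopathy, the rodent counterpart of retinopathy of prematurity, and SD and F344 rats are used in it as strains that differ in susceptibility. Retinal vessels still grow across the inner retina at these ages while photoreceptors are being born and start to mature. The 8 genes belong to no single pathway. Pter encodes a phosphotriesterase-related hydrolase that acts on N-acetyltaurine in mice, Slc26a7 an anion transporter of the SLC26 family, and Tmco3 a membrane protein related to cation-proton antiporters. Pth2r encodes a class B G protein-coupled receptor for the peptide made from Pth2, and Gng11 a gamma subunit of heterotrimeric G proteins. Pax4 encodes a paired-homeodomain transcription factor known from pancreatic beta cells and, in the rat, from photoreceptors. Mospd1 encodes a membrane protein of the endoplasmic reticulum with a major sperm protein domain, and Tex26 a testis-expressed protein.

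Array values are log2 expression as deposited. Array medians lay between 5.452 and 5.524, and arrays of the same group correlated at Pearson r between 0.984 and 0.996, lowest in F344 hyperoxia day 6, whose replicate 2 also had the highest median and the narrowest interquartile range of the 16 arrays. All 8 retinal marker genes measured averaged above the lowest array median of 5.452, whereas this held for 1 of 5 lens, 1 of 5 skeletal muscle, 1 of 4 erythroid and 3 of 6 pigment epithelium, choroid and ciliary body genes. That median, 5.452, served as a floor: where the dimmer strain's mean lay under it, the fold is given as at least the brighter mean over the floor. Of the 6 pigment epithelium, choroid and ciliary body genes, 1 was called higher and 1 lower in SD, and 0 lens, skeletal muscle or erythroid genes were called. Lens array means lay between 4.68 and 5.69 in SD and between 4.69 and 5.78 in F344. The part of attached tissue in the strain differences was not tested. Of the 34 measured RT1 genes of the rat MHC with a chromosome in RefSeq, 0 lay on the chromosome of any of the 8 genes.

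Mospd1 showed the largest strain difference on the array in room air, and its direction was lower in SD. Pter had the largest difference in the other direction among probe sets with a single gene name. The proximal promoters of Mospd1 and Pter are shown because these genes lead the group in each direction. Both come from RefSeq on the rat assembly GRCr8, 250 bases before to 50 after the transcription start, 5′ to 3′ on the gene's strand, with each CG dinucleotide in capitals. They are reference sequence and were read from neither SD nor F344.
Mospd1, chrX:138047324-138047623, minus strand: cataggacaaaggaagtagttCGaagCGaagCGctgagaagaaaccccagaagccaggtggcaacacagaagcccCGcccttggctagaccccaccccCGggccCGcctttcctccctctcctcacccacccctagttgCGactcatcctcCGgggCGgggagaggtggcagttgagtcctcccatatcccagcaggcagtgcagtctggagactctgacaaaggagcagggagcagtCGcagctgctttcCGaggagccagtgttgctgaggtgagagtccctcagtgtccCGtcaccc
Pter, chr17:80967326-80967625, plus strand: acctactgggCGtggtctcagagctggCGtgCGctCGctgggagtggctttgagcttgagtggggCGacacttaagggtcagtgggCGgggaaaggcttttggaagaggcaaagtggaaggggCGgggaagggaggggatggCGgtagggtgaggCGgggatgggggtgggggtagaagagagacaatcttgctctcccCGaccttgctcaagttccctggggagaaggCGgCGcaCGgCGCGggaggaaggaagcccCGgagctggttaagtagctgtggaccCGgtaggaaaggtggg
Mospd1 holds 12 CG dinucleotides in this window and Pter 17, against a median of 7 over the promoters of 27457 genes. Of those promoters, 39.8% held at least as many as Mospd1 and 31.5% at least as many as Pter. The letters TATAAA, searched on both strands, were in 14.3% of all promoters and in 0 of the 7 promoters of these genes that RefSeq lists.

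In SD retinas the first Mospd1 probe set (10778399) lay under the floor on every array and in F344 retinas far above it. Under hyperoxia it read 4.27 and 4.20 in SD against 8.85 and 8.89 in F344 on day 5, and 4.16 and 4.13 in SD against 8.63 and 8.24 in F344 on day 6. In room air it read 4.15 and 4.24 in SD against 9.40 and 8.83 in F344 on day 5, and 3.97 and 4.18 in SD against 8.68 and 8.39 in F344 on day 6. The 8 SD arrays spanned 3.97 to 4.27 and the 8 F344 arrays 8.24 to 9.40, so the strains did not overlap in any exposure. Expression in F344 was at least 10.7-fold higher than in SD under hyperoxia on day 5 and at least 7.91-fold higher on day 6, with bounds of 12.7 and 8.48 in room air. In the hyperoxia arrays, the SD minus F344 difference over both days was -4.46 ± 0.12 log2 (SE, limma adjusted p = 1.89e-11). The room air ranking did not use the hyperoxia values, but the genes were chosen with earlier results of these data known. The SE and p-value of each hyperoxia test also draw on a spread shared with the room air arrays that chose the genes. They are therefore not independent of the choice. Fitted on the hyperoxia arrays alone, the difference was -4.46 log2 (limma adjusted p = 5.24e-09). The samples are whole retinas, in which fewer cells of a type and less RNA per cell cannot be told apart.

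The second Mospd1 probe set (10939816) is annotated to the same gene. Under hyperoxia it read 4.29 and 4.20 in SD against 8.60 and 8.61 in F344 on day 5, and 4.27 and 4.16 in SD against 8.42 and 8.06 in F344 on day 6. The difference over both days was -4.20 ± 0.11 log2 (limma adjusted p = 1.89e-11), in the direction of the first probe set. The first set minus the second lay between -0.11 and 0.02 log2 on the SD arrays and between 0.18 and 0.34 on the F344 arrays. Across the 8 F344 arrays the sets correlated at r = 1.00, and across the 8 SD arrays at 0.89. They share arrays and an annotated gene, so these values are descriptions. A fact noticed after the values were seen is that 7 of the 8 probe sets numbered nearest to 10939816 belong to genes on Mospd1's chromosome, but 0 of the 8 nearest to 10778399. Set 10778399 is numbered between sets for Igfbp3 and Hus1, whose own strain differences under hyperoxia were -0.16 and 0.16 log2, neither called. Whether the 2 sets report the same RNA was not tested.

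**Figure D1:**
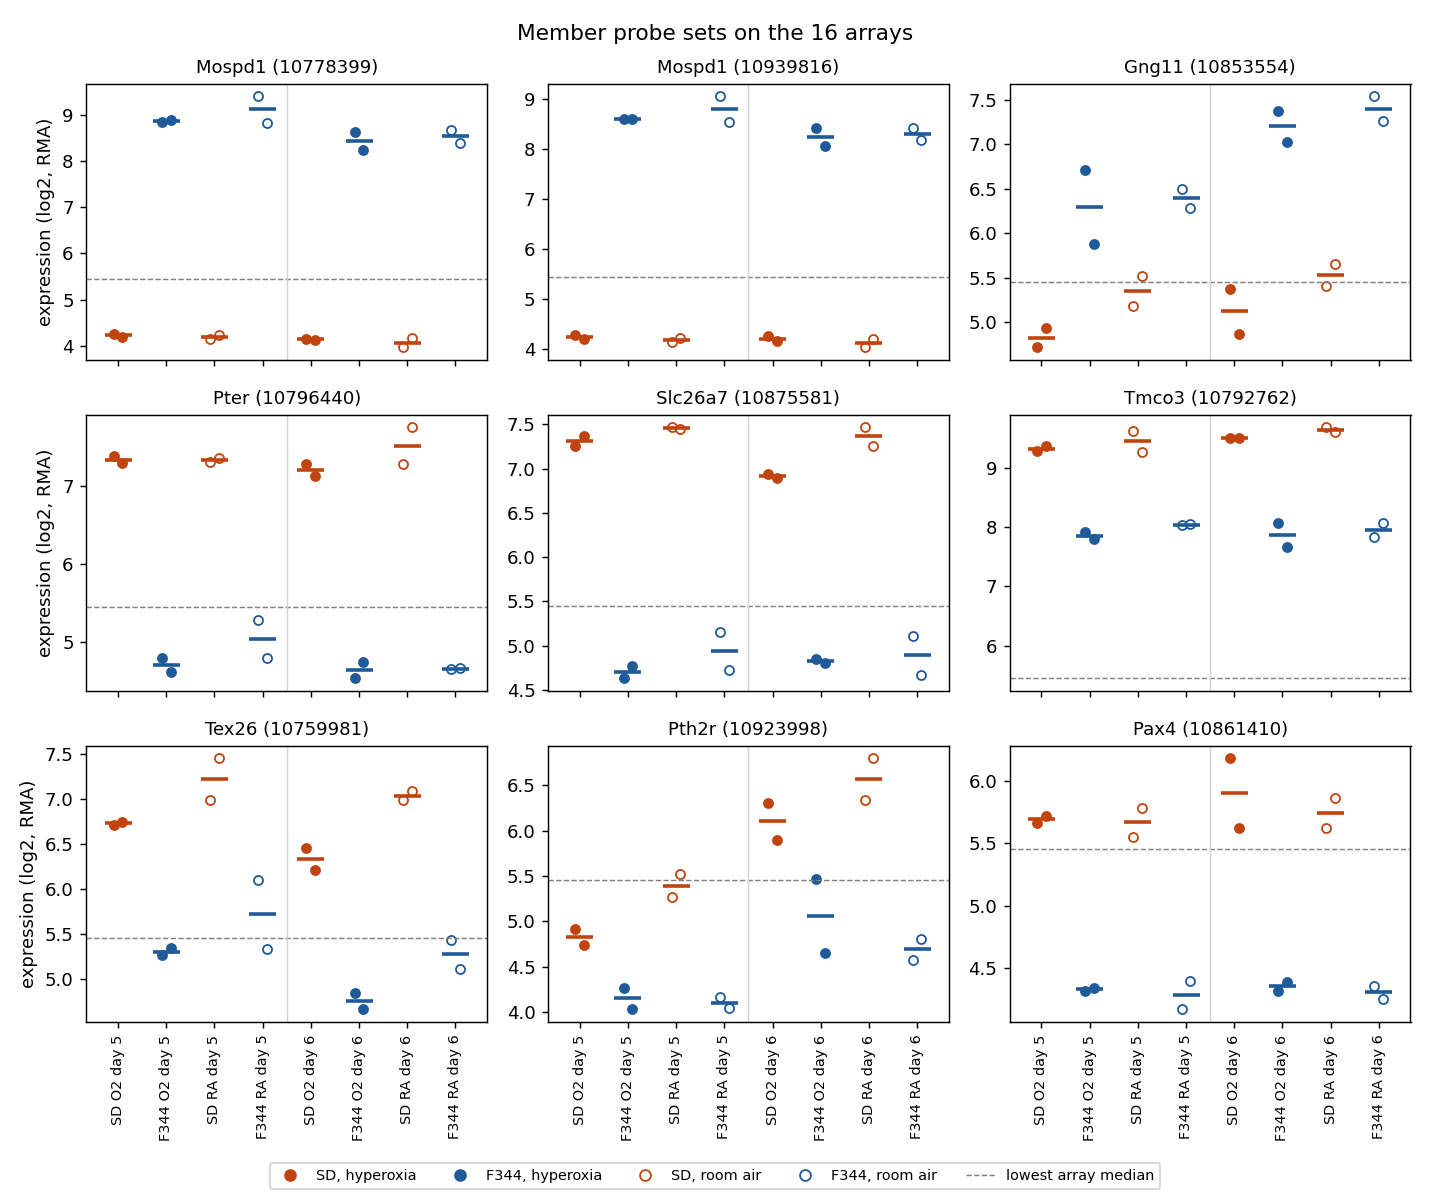
Log2 expression of the 9 probe sets on each of the 16 arrays, by strain, exposure (O2, cyclic hyperoxia; RA, room air) and day. Points are arrays, horizontal lines are means of 2 arrays and the dashed line is the lowest array median, 5.452. SD and F344 stand apart in each exposure for every set except Pth2r under hyperoxia, and Pth2r is higher on day 6 than on day 5 in both strains.

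Pter and Slc26a7, the hydrolase and the anion transporter, were both higher in SD. Pter read 7.38 and 7.29 in SD against 4.80 and 4.62 in F344 under hyperoxia on day 5, and 7.28 and 7.13 in SD against 4.54 and 4.75 in F344 on day 6. The room air arrays read 7.31 and 7.35 in SD against 5.29 and 4.80 in F344 on day 5, and 7.28 and 7.75 in SD against 4.66 and 4.67 in F344 on day 6. All 8 SD arrays were above all 8 F344 arrays, and every F344 array was under the floor. Under hyperoxia Pter was at least 3.68-fold higher in SD on day 5 and at least 3.38-fold on day 6, a difference over both days of 2.59 ± 0.12 log2 (limma adjusted p = 7.12e-09).

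Slc26a7 read 7.26 and 7.37 in SD against 4.63 and 4.77 in F344 under hyperoxia on day 5, and 6.94 and 6.89 in SD against 4.85 and 4.80 in F344 on day 6. Without added oxygen it read 7.47 and 7.45 in SD against 5.15 and 4.72 in F344 on day 5, and 7.47 and 7.26 in SD against 5.11 and 4.67 in F344 on day 6. Again no SD array reached down to an F344 array, and all F344 arrays were under the floor. The lowest SD values were the pair of hyperoxia arrays of day 6. The hyperoxia difference was 2.35 ± 0.11 log2 over both days (limma adjusted p = 7.12e-09), at least 3.63-fold on day 5 and at least 2.75-fold on day 6. Centred over the 16 arrays, Pter and Slc26a7 differed by a root mean square of 0.237 log2, and each was the other's nearest named probe set. All such likeness values below are descriptions: 8 of the 16 arrays are the room air arrays that chose the genes, and the strain difference that chose them is part of each centred profile. The next nearest to both was RT1-DOb, an MHC class II gene, at 0.52 for Pter and 0.46 for Slc26a7.

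Tmco3, the putative antiporter, was higher in SD and was the only member above the floor on all 16 arrays. It read 9.28 and 9.36 in SD against 7.92 and 7.79 in F344 under hyperoxia on day 5, and 9.49 on both SD arrays against 8.06 and 7.67 in F344 on day 6. In room air the values were 9.61 and 9.27 in SD against 8.03 and 8.05 in F344 on day 5, and 9.68 and 9.59 in SD against 7.83 and 8.07 in F344 on day 6. The strains did not overlap, and because both were above the floor the folds are plain ratios: 2.76 on day 5 and 3.08 on day 6 under hyperoxia, with 2.64 and 3.21 in room air. The hyperoxia difference was 1.54 ± 0.10 log2 (limma adjusted p = 5.37e-07). The nearest profiles over the 16 arrays were those of the MHC class II genes RT1-DOb, at a root mean square of 0.143 log2, and RT1-Bb, at 0.225.

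Tex26 was higher in SD. It was also the 1 of 9 sets called in the oxygen effect over both strains and days, where 8.43% of all probe sets were called. Under hyperoxia it read 6.71 and 6.74 in SD against 5.26 and 5.34 in F344 on day 5, and 6.45 and 6.21 in SD against 4.84 and 4.66 in F344 on day 6. Room air values were 6.98 and 7.45 in SD against 6.10 and 5.33 in F344 on day 5, and 6.98 and 7.08 in SD against 5.43 and 5.11 in F344 on day 6. SD and F344 did not overlap, although an F344 room air array of day 5, at 6.10, came near the lowest SD array, a hyperoxia array of day 6 at 6.21. The hyperoxia strain difference was 1.50 ± 0.15 log2 over both days (limma adjusted p = 3.5e-05), at least 2.41-fold on day 5 and at least 1.84-fold on day 6. On day 5 alone it was 1.42 log2 (limma adjusted p = 0.00379), a call lost when SD hyperoxia replicate 1 or 2 of that day was left out, at 1.44 and 1.41 with an adjusted p of up to 0.0614. Its nearest profiles were those of RT1-DOb (0.383 log2) and of Prim1 (0.39), a DNA primase subunit.

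Pax4, the transcription factor, was higher in SD but lay close to the floor there. Under hyperoxia it read 5.66 and 5.72 in SD against 4.32 and 4.34 in F344 on day 5, and 6.18 and 5.62 in SD against 4.32 and 4.39 in F344 on day 6. In room air it read 5.55 and 5.78 in SD against 4.17 and 4.40 in F344 on day 5, and 5.62 and 5.86 in SD against 4.36 and 4.25 in F344 on day 6. All SD arrays were above the floor and all F344 arrays under it, without overlap. The bounds were small, at least 1.18-fold on day 5 and at least 1.36-fold on day 6 under hyperoxia, while the difference over both days was 1.45 ± 0.11 log2 (limma adjusted p = 3.22e-06). The nearest profiles were those of Cd9, a tetraspanin, at 0.184 log2 and RT1-DOb at 0.187. Pax4 is also the threshold of the choice: its room air difference was 1.41 log2, and the next probe set with 1 gene name, Cd9, stood just outside at 1.40.

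Gng11, the G protein subunit, was lower in SD. Under hyperoxia it read 4.72 and 4.94 in SD against 6.71 and 5.88 in F344 on day 5, and 5.38 and 4.87 in SD against 7.37 and 7.03 in F344 on day 6. The room air arrays read 5.19 and 5.52 in SD against 6.50 and 6.29 in F344 on day 5, and 5.41 and 5.66 in SD against 7.54 and 7.26 in F344 on day 6. The strains did not overlap: 6 of 8 SD arrays were under the floor and 0 of 8 F344 arrays. The hyperoxia difference was -1.77 ± 0.17 log2 over both days (limma adjusted p = 2.6e-05), that is, at least 1.8-fold higher in F344 on day 5 and at least 3.36-fold on day 6. On day 5 alone it was -1.47 log2 (limma adjusted p = 0.00794), but it lost its call without F344 hyperoxia replicate 1 of that day, at -1.05, and without SD hyperoxia replicate 1 or 2, at -1.36 and -1.57, with adjusted p up to 0.128. Its nearest profiles were those of Col5a3, a collagen chain (0.328 log2), and Lix1 (0.474). Of the 6 endothelial marker genes measured, all averaged under the floor, with array means of 4.64 to 5.38 in SD and 4.66 to 5.30 in F344, and 1 of 6 was called between strains, lower in SD. Their part in the Gng11 difference was not tested.

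Pth2r, the receptor, was higher in SD, and its arrays overlapped between the strains under hyperoxia. On day 5 under hyperoxia it read 4.92 and 4.74 in SD against 4.27 and 4.03 in F344, all under the floor. On day 6 it read 6.31 and 5.90 in SD against 5.47 and 4.65 in F344. The 4 SD arrays of both days (4.74 to 6.31) thus overlapped the 4 F344 arrays (4.03 to 5.47), although within each day the SD arrays were the higher pair. In room air it read 5.27 and 5.52 in SD against 4.17 and 4.04 in F344 on day 5, and 6.34 and 6.80 in SD against 4.57 and 4.81 in F344 on day 6, without overlap. The hyperoxia difference was 0.86 ± 0.16 log2 over both days (limma adjusted p = 0.00642). On day 5 it was 0.68 ± 0.23 log2 and not called (limma adjusted p = 0.187). On day 6 it was 1.04 ± 0.23 log2 (limma adjusted p = 0.0396), a call lost in 12 of 21 alternatives: 11 left out 1 array each, and 1 fitted the hyperoxia arrays alone. The lowest value, 0.63, came without F344 hyperoxia day 6 replicate 2, with adjusted p up to 0.422 over the alternatives.

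The profiles nearest to Pth2r were those of Guca1b, a guanylate cyclase activating protein of photoreceptors (0.303 log2), and Gnat1, the alpha subunit of rod transducin (0.321). Gnat1 was 0.84 log2 higher in SD under hyperoxia (limma adjusted p = 0.00682) and Guca1b 0.74 higher (limma adjusted p = 0.0375). Over the list of photoreceptor markers, 6 of 8 were measured and all 6 averaged above the floor. Their array means lay between 10.19 and 10.79 in SD and between 9.72 and 10.51 in F344, and 2 of 6 were called higher in SD, with a median difference of 0.29 log2 against 0.01 over all genes. Their part in the Pth2r and Pax4 differences was not tested.

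Over both days under hyperoxia, 9 of 9 probe sets were called between strains at a limma adjusted p under 0.05, 6 higher and 3 lower in SD, where 6.47% of all probe sets on the array were called. The 9 also kept their calls in each of the 21 or 22 alternatives run for each. On day 5 alone 8 of 9 were called against 0.925% of all probe sets, and on day 6 alone 9 of 9 against 1.27%. The 4 SD and 4 F344 hyperoxia arrays did not overlap for 8 of 9 sets, as for 11.2% of all probe sets. In room air, the contrast that chose the genes, 9 of 9 sets did not overlap, as for 9.91% of all probe sets, and limma called 6.73% of all probe sets; nothing is read from these shares. The room air differences over both days were -4.69 and -4.40 log2 for the Mospd1 sets, 2.57 for Pter, 2.50 for Slc26a7, 1.63 for Tex26, 1.59 for Pth2r, 1.54 for Tmco3, -1.45 for Gng11 and 1.41 for Pax4.

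**Figure D2:**
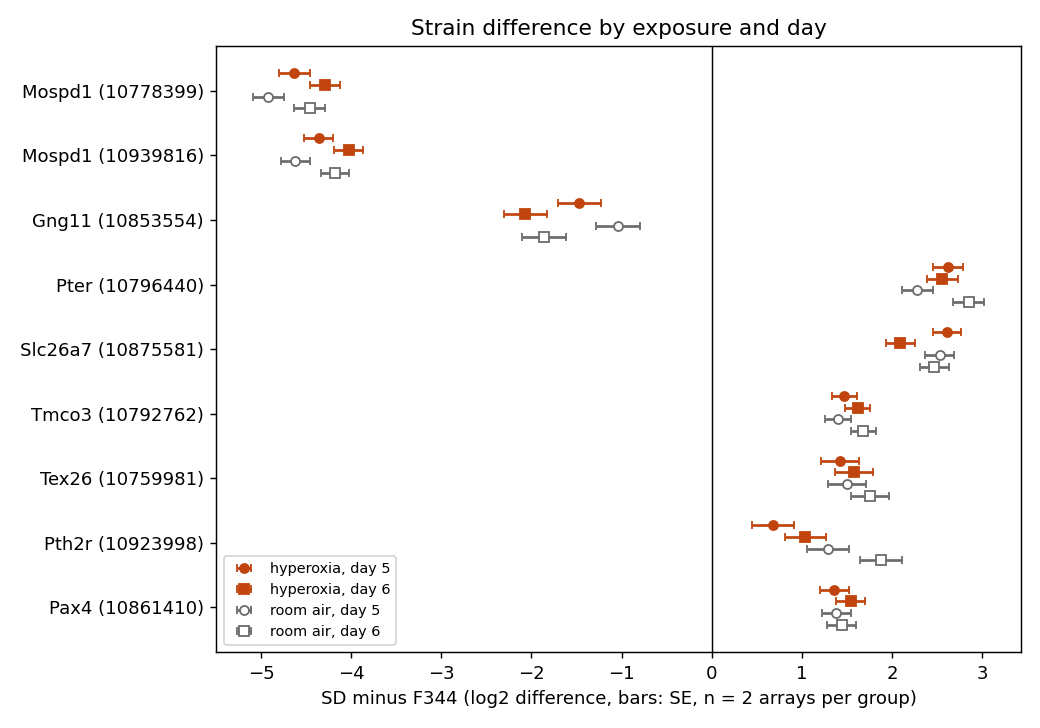
SD minus F344 difference in log2 expression for each probe set, by exposure and day, with n = 2 arrays per group. Points are estimates and bars are standard errors. The 3 sets of Mospd1 and Gng11 lie left of 0 and the other 6 right of it in all 4 settings; the room air points chose the genes and are descriptions.

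Whether the strain difference itself changed between the days was tested under hyperoxia. The change, day 6 minus day 5, lay between -0.61 log2 for Gng11 and 0.36 for Pth2r, each with a limma adjusted p of 0.998. None of the 9 was called, with 0% of all probe sets called; over the whole table limma gave 0 adjusted calls, a smallest adjusted p of 0.631 and 1013 probe sets at an unadjusted p under 0.05. Whether oxygen changed the strain difference is described only, because the room air arrays chose the genes. The SD oxygen effect minus the F344 oxygen effect over both days was -0.73 ± 0.23 log2 for Pth2r, -0.32 for Gng11, 0.23 and 0.21 for the Mospd1 sets, -0.15 for Slc26a7 and -0.13 for Tex26. For Pax4, Pter and Tmco3 it was 0.04, 0.02 and 0.00. For Pth2r, hyperoxia minus room air was -0.52 log2 in SD and 0.21 in F344.

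The oxygen effect averaged over both strains is separate from the strain contrast. Tex26 fell under hyperoxia, with a hyperoxia minus room air difference of -0.53 ± 0.10 log2 over both strains and days (limma adjusted p = 0.0125). That call held in all 21 alternatives, between -0.63 and -0.44. All 8 SD arrays were above the floor, but 7 of the 8 F344 arrays lay under it. It was 1 of 9 sets called, in the lower direction, where 8.43% of all probe sets were called and 3.68% were called lower. For Gng11 the difference was -0.31 log2 (limma adjusted p = 0.121), for Slc26a7 -0.22 (0.0839), for Pter and Pth2r -0.16 each (0.233 and 0.422) and for Tmco3 -0.14 (0.248). The Mospd1 sets had -0.06 and -0.02 log2 (adjusted p of 0.713 and 0.886) and Pax4 0.07 (0.623). Slc26a7 passed the threshold, at -0.28 log2 with a limma adjusted p of 0.0363, when F344 room air day 5 replicate 2 was left out, and Gng11, at -0.41 with 0.0284, when F344 hyperoxia day 5 replicate 1 was left out. On these arrays 4 of 6 endothelial markers were called lower under hyperoxia, with a median of -0.37 log2, and their part in the Tex26 effect was not tested.

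By day, Tex26 differed by -0.45 log2 on day 5 (limma adjusted p = 0.301) and by -0.61 ± 0.15 on day 6 (limma adjusted p = 0.0307). That makes 0 of 9 sets called on day 5, against 0.121% of all probe sets, and 1 of 9 on day 6, against 5.16%, with 1.83% of all probe sets called lower. The day 6 call was lost without F344 hyperoxia replicate 2 or without any 1 of the 2 F344 room air, 2 SD hyperoxia and 2 SD room air arrays of that day, with values between -0.69 and -0.53 and adjusted p up to 0.118. Within single strains, which share the room air arrays that chose the genes, 0 of 9 sets were called in SD on day 5 (0.0329% of all probe sets), in SD on day 6 (1.88%), in F344 on day 5 (0.0549%) or in F344 on day 6 (0.406%). Tex26 had a difference below 0 in each of these: -0.49 log2 in SD and -0.41 in F344 on day 5, and -0.70 in SD and -0.52 in F344 on day 6, with limma adjusted p between 0.104 and 0.629. Slc26a7 had its largest single difference in SD on day 6, -0.45 log2 (limma adjusted p = 0.147). Fitted on the SD arrays alone, Tex26 and Slc26a7 passed on day 6, with limma adjusted p of 0.0328 and 0.0451. Tex26 also passed there, at the same value and a limma adjusted p of 0.0421, when F344 room air replicate 1 or 2 of day 5 was left out, an array that bears on the SD contrast only through the shared spread.

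Day moved Pth2r. Over both strains it was 1.09 ± 0.16 log2 higher on day 6 than on day 5 under hyperoxia (limma adjusted p = 0.0014) and 0.88 ± 0.16 higher in room air (limma adjusted p = 0.0134). It was 1 of 9 sets called under hyperoxia, where 2.98% of all probe sets were called and 1.23% were called higher, and 1 of 9 in room air, where the shares were 1.69% and 0.527%. The hyperoxia call held in all 21 alternatives, between 0.89 and 1.30 log2. The room air call was lost without F344 day 5 replicate 1, SD day 5 replicate 1, F344 day 6 replicate 2 or SD day 6 replicate 2, at 0.77 to 0.91 log2 and adjusted p up to 0.0901. By group, the day 6 minus day 5 values of Pth2r were 1.28 log2 in SD and 0.91 in F344 under hyperoxia, and 1.17 in SD and 0.59 in F344 in room air. Only the SD means of day 6 were above the floor, at 6.10 under hyperoxia and 6.57 in room air. The SD means of day 5 (4.83 and 5.40) and the F344 means of both days (4.15 and 5.06 under hyperoxia, 4.10 and 4.69 in room air) lay under it, so the F344 day values compare signals that were not above the floor.

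Gng11 had day 6 minus day 5 values of 0.60 ± 0.17 log2 under hyperoxia (limma adjusted p = 0.0776) and 0.60 ± 0.17 in room air (limma adjusted p = 0.104), neither called. By group they were 0.30 in SD and 0.90 in F344 under hyperoxia, and 0.19 in SD and 1.01 in F344 in room air. Tex26 had -0.47 log2 under hyperoxia (limma adjusted p = 0.11) and -0.31 in room air (0.401). Gng11 passed under hyperoxia, at 0.81 log2 with a limma adjusted p of 0.0119, without F344 hyperoxia day 5 replicate 1, the array on which it read 6.71. In room air it passed at 0.60 log2, with a limma adjusted p of 0.0483, when F344 hyperoxia replicate 1 or 2 of day 5 was left out. When F344 room air replicate 1 or 2 of day 5 was left out, Tex26 passed under hyperoxia at -0.47 log2 (limma adjusted p = 0.0359). Mospd1 set 10778399 passed in room air, at -0.49 log2 with a limma adjusted p of 0.0381, without F344 room air replicate 2 of day 5, but had -0.35 and no call with all arrays.

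**Figure D3:**
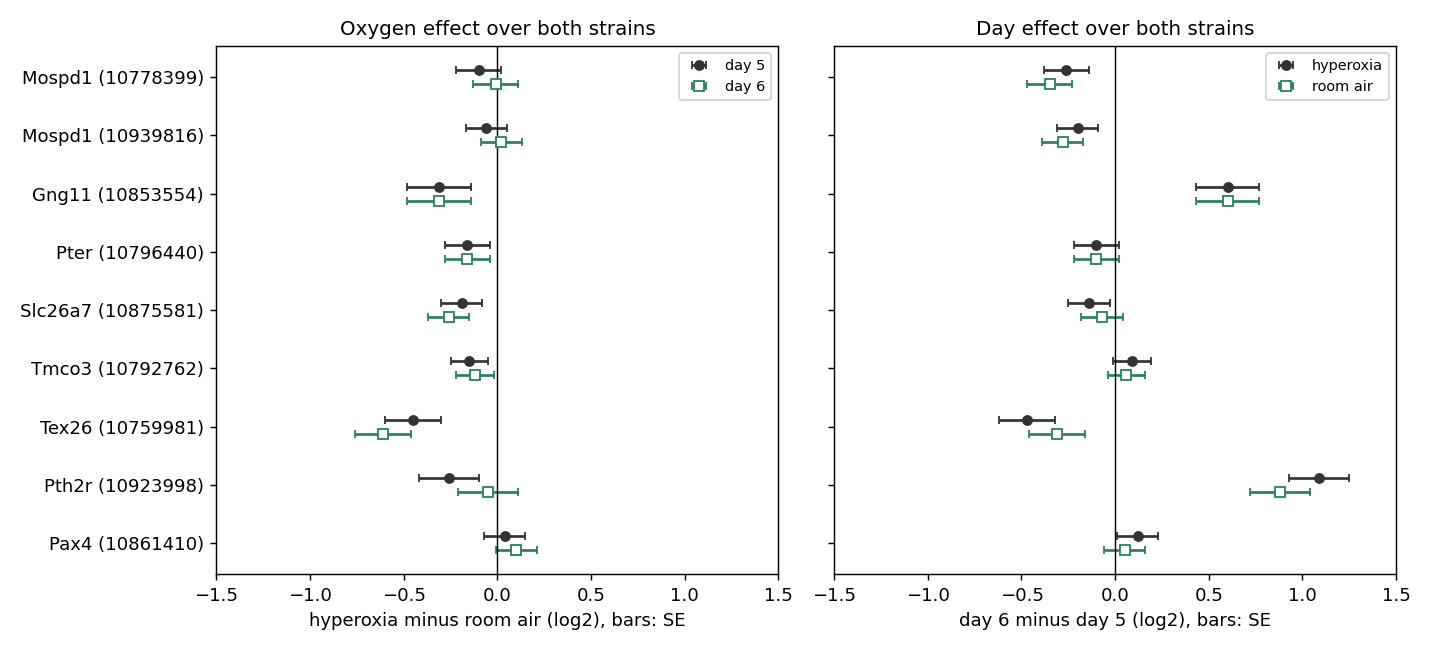
Effects averaged over both strains for each probe set, in log2 units, with bars for standard errors. The left panel gives hyperoxia minus room air on day 5 and day 6, and the right panel day 6 minus day 5 under hyperoxia and in room air. Tex26 lies farthest below 0 on the left, at -0.45 and -0.61, and Pth2r farthest above 0 on the right, at 1.09 and 0.88.

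Genes around the members were called between the strains at a share near that of all genes. Of the 80 nearest measured genes, 5 on each side of each member in the RefSeq order, 7 (8.75%) were called between strains under hyperoxia, where 7.27% of all genes were called. Their median absolute difference was 0.12 log2, against 0.11 over all genes. Around Mospd1, Gng11 and Pax4, 0 of 10 neighbours each were called. Gngt1, the rod transducin gamma subunit gene beside Gng11, differed by 0.13 log2 (limma adjusted p = 0.756). Mospd1 was placed by its annotated gene, although set 10778399 is numbered among probe sets of another chromosome.

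The largest neighbouring difference was that of Otud6b, a deubiquitinase gene 2 genes away from Slc26a7, which averaged 9.10 log2 in SD and 8.10 in F344 under hyperoxia, a difference of 1.00 ± 0.07 (limma adjusted p = 1.42e-06). Beside Tmco3, Dcun1d2, a neddylation factor, averaged 7.21 in SD and 6.46 in F344, a difference of 0.75 ± 0.12 (limma adjusted p = 0.00215), and Pcid2 was 0.47 log2 higher in SD (0.0102). Each of these ran in the direction of its member. So did Rpp38, a subunit of ribonuclease P near Pter, at 0.46 log2 (limma adjusted p = 0.00488) and Idh1, cytosolic isocitrate dehydrogenase near Pth2r, at 0.43 (0.0204). Map2, the neuronal microtubule-associated protein on the other side of Pth2r, ran against it at -0.36 log2 (limma adjusted p = 0.0152), as did Ubl3 near Tex26 at -0.36 (0.0427). The members with called neighbours were all higher in SD. Of all 1770 probe sets called in this contrast, 925 were higher in SD and 845 lower. Whether neighbours share the direction of their member was not tested.

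**Figure D4:**
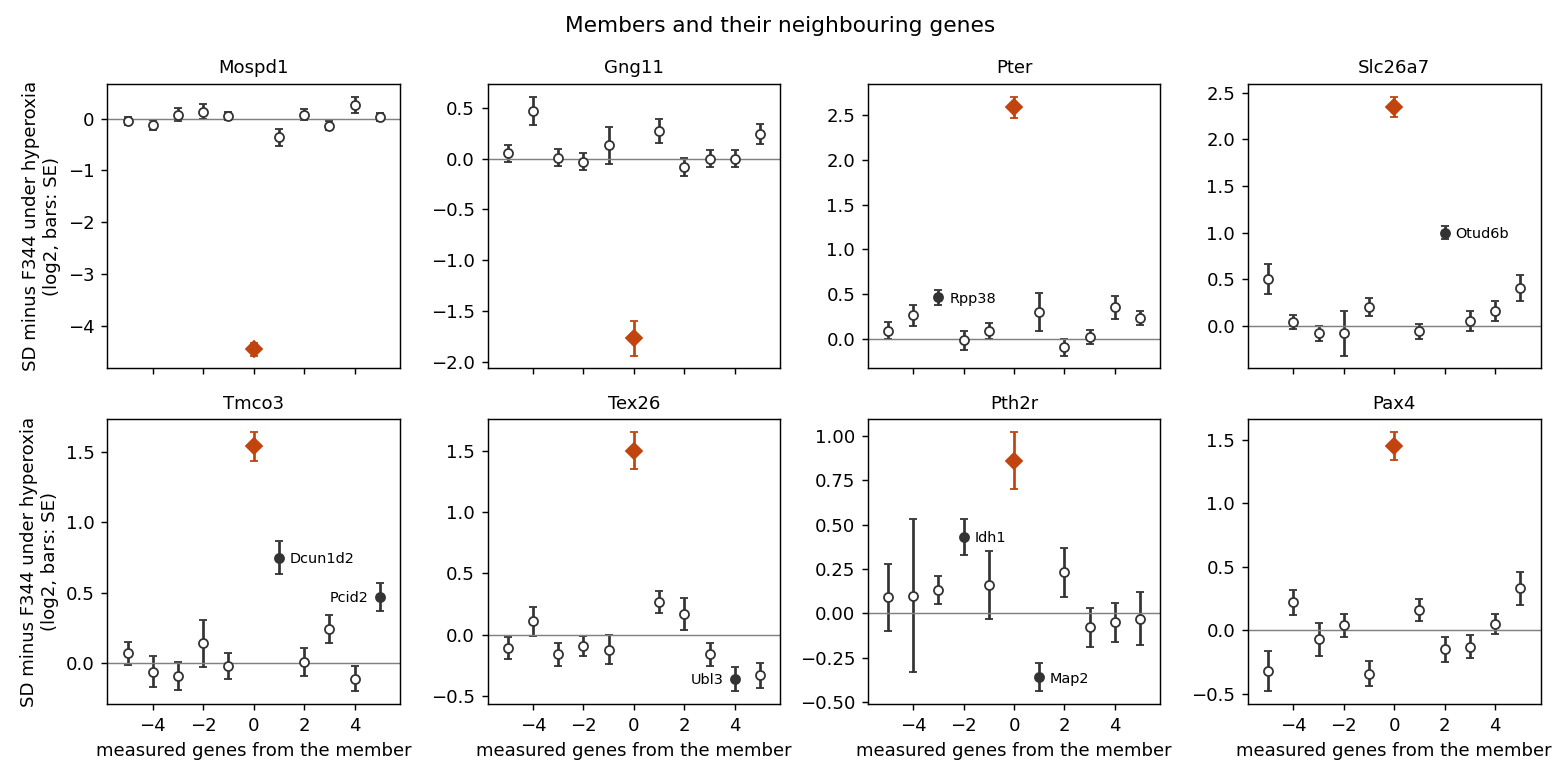
SD minus F344 difference under hyperoxia over both days for each member (diamond; for Mospd1, set 10778399) and the 5 measured genes on each side of it, in log2 units, by position in measured genes from the member, with bars for standard errors. Filled circles with names are the 7 neighbours called at a limma adjusted p under 0.05. Each member stands farther from 0 than all of its 10 neighbours, but members were chosen for large strain differences and neighbours were not. The contrast in size is therefore a description.

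Related genes of the same families were counted to set the members beside their pathways. Over 7 lists with 68 genes, members left out, 2 (2.94%) were called between strains under hyperoxia, where 7.27% of all genes were called. Of 4 other genes with a major sperm protein domain, 0 were called between strains under hyperoxia; Mospd2 had 0.38 log2 (limma adjusted p = 0.0568). Of 8 genes of taurine metabolism and transport 0 were called. Of the 9 other SLC26 transporters, 1 was called higher in SD, the anion transporter Slc26a8, at 0.31 ± 0.08 log2 (limma adjusted p = 0.0299). Of 8 cation-proton exchangers, 1 was called lower in SD, Slc9a5, at -0.30 log2 (limma adjusted p = 0.0496).

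For the signalling and transcription genes the lists gave no calls, and with so few genes this is not set apart from the share over all genes. Of 13 genes of the parathyroid hormone system and other class B receptors 0 were called, among them the ligand gene Pth2 at 0.03 log2 (limma adjusted p = 0.883) and Pth1r, the related receptor, at -0.07 (0.815). Of 14 other G protein subunit and partner genes 0 were called, and of 12 Pax and photoreceptor transcription factor genes 0 were called, with Pax6 at 0.14 (limma adjusted p = 0.275). The medians of these 7 lists lay between -0.10 and 0.06 log2, beside 0.01 over all genes. In the oxygen effect over both strains and days, 6 of the 68 list genes (8.82%) were called, 1 higher and 5 lower, a share near the 8.21% of all genes called. Mospd2 (-0.29 log2, limma adjusted p = 0.0373), Slc26a2 (-0.28, 0.0318), the class B receptor genes Adcyap1r1 (-0.34, 0.0088) and Vipr2 (-0.27, 0.0227) and the thyroid hormone receptor gene Thrb (-0.26, 0.0342) fell, and Nrl, a rod transcription factor gene, rose (0.30, 0.0112).

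In room air the 2 Mospd1 sets ranked first and second of all 27342 probe sets by absolute strain difference, Pter and Slc26a7 7 and 8, Tex26 17, Pth2r 19, Tmco3 23, Gng11 28 and Pax4 29. Of the 29 sets down to Pax4, 14 had a single gene name. The 5 of them that were no member were Ly6g6e (-2.63 log2), Tap2 (-1.78), RT1-DOb (1.58), Ly6g6d (-1.53) and RT1-Bb, genes of the MHC region.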

How the data were processed

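Retinal RNA pools of SD and F344 rats, 2 arrays per group, were compared. The deposited table holds log2 values, made by the authors with Partek 6.4 and RMA per the submitters' processing notes. RMA corrects background, quantile-normalizes probe intensities and summarises each probe set, so a shift common to most transcripts is removed. The genome build of the array is not given in the sources used here. Strain differences in RNA level and in how a transcript binds the probes cannot be told apart on these arrays.

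Of 27342 probe sets, the platform annotation gives 15097 a single symbol, 323 several and 11922 none; 15067 were matched to RefSeq (GRCr8, used for names, neighbour order and promoters). limma 3.58.1 in R 4.3.3 was fitted to all 16 arrays with 1 mean per group (8 residual and 6.39 prior degrees of freedom), with Benjamini-Hochberg adjustment over all probe sets and calls at an adjusted p under 0.05. The fit was tested on simulated data. Values after ± are moderated standard errors. The 8 genes were taken with every probe set; also named are the 2 nearest profiles per probe set, list and neighbouring genes called under hyperoxia (at most 4 per list or member) and the 4 largest other room air differences, while list genes named for their oxygen effect, Pth2, Pth1r, Pax6, Gngt1, Mospd2 and the genes beside a Mospd1 set by number were chosen after their values were seen. Members and lists were chosen with earlier results of these data known. The number of arrays limits the precision, and p-values measure the spread between these pools only. Same-numbered arrays were not treated as pairs, since the labels tie no number to a litter or batch. Alternatives left out each array, filtered dim probe sets, added the replicate block, changed variance or centring, or took 1 probe set per gene.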

Additional observations from a re-analysis of the deposited data

How the results depend on the processing

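Over both days under hyperoxia the count of called probe sets was 9 of those tested in each alternative that tested all of them, and no result reversed. For the oxygen effect over both strains the count of members called, 1 in the results given, ranged from 1 to 2 over both days and from 0 to 1 on day 6. For the oxygen effect in SD on day 6 it was 2 when only the arrays compared were fitted and ranged from 0 to 1 without single arrays, leaving out 1 at a time. For the day effect it was 0 in both exposures with the filter on dim probe sets, which leaves Pth2r out, and 2 in both with only the arrays compared; without single arrays it ranged from 0 to 2 in room air and from 1 to 2 under hyperoxia. The added calls were those of Gng11, Tex26, Slc26a7 or, in room air, Mospd1.

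Counts over the whole table moved more. Without single arrays the strain difference under hyperoxia gave 650 to 2799 probe sets over both days (1770 with all arrays), 60 to 611 on day 5 (253) and 66 to 1653 on day 6 (348). The oxygen effect over both strains gave 505 to 6156 over both days (2306), 15 to 52 on day 5 (33) and 13 to 5468 on day 6 (1411). Within SD it gave 0 to 10 on day 5 (9) and 0 to 1421 on day 6 (514), and within F344 0 to 28 (15) and 0 to 3414 (111). The day effect gave 360 to 3201 under hyperoxia (816) and 91 to 742 in room air (461). Each highest count came without F344 hyperoxia day 6 replicate 1. Leaving out replicate 2 of that group gave the same count for the strain difference and the oxygen effects on day 5. The same held for oxygen in SD on day 6 and for day in room air. The lowest came without SD hyperoxia day 6 replicate 1 for the strain difference over both days and on day 6 and for day under hyperoxia. It also did for oxygen in SD and over both strains on day 6. For oxygen in SD on day 6, leaving out SD room air day 6 replicate 1 gave the same lowest count. With only the arrays compared, counts were 181 for the day 6 strain difference, 6 and 1325 for SD on days 5 and 6, 0 and 0 for F344, and 247 for day in room air. One probe set per gene gave 1352 for oxygen over both days and 170 for F344 on day 6. The variance trend gave 22 for F344 on day 6, and centring gave 5 for SD and 8 for F344 on day 5. With the replicate block, counts were 4 for SD on day 5, 9 and 38 for F344 on days 5 and 6, and 1812 for the strain difference over both days. The block changed no member count, and group pairs gave correlations of same-numbered deviations between -0.31 and 0.456. The cause of these moves was not tested. Plain ratios of means, which use values under the floor, were 19.5 to 30.3 for Mospd1 set 10778399 in F344 over SD, against bounds of 7.91 to 12.7. Depth of signal limits Mospd1 in SD and Pter, Slc26a7 and Pax4 in F344, where every array was under the floor.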

Other observations

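Among the 29 probe sets with the largest room air strain differences down to Pax4, 15 carry several gene symbols or none in the platform annotation, with an absolute difference of up to 3.70 log2, and 14 of these 15 were called between strains under hyperoxia. They are unnamed here and were not described further.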
